A study of Mus musculus with 28 samples.

Results

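A set of 9 genes named for the surface or cytoskeleton of fibroblasts and their progenitors were followed through mouse thyroid and salivary gland cells: Pdgfra, Thy1, Ly6a, Cd34, Pi16, Dpp4, Axl, Vim and Cd24a. They are 9 of the 47643 gene rows of each count table and were picked by name, through their Ensembl identifiers. That choice was made with earlier results of these data known, so counts of members that passed describe the set and do not test it. The 8 genes other than Cd24a are called the mesenchymal members below, and Cd24a was set against them. The cells came from mice carrying a histone H2B-GFP label, which dividing cells dilute and slowly dividing cells keep, and were sorted without culture by their GFP signal, into GFP+ and GFP-. The groups were thyroid GFP+ and thyroid GFP- at 3 months (4 libraries each), at 6 months (4 each) and at 9 months (3 each), and salivary gland GFP+ and GFP- at 9 months (3 each), 28 libraries in 8 groups. Every group carried H2B-GFP, and the labels do not say which promoter drives it, when it is switched on, or whether the libraries of a group came from separate animals, so the p-values speak for the spread among these libraries and no more.

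Fibroblasts are the matrix-building cells of connective tissue, and they share several surface proteins with the less committed mesenchymal cells around vessels and in the adventitia from which they can be replenished. PDGFRA and AXL are receptor tyrosine kinases, THY1 and LY6A (also known as Sca-1) are anchored to the membrane by a lipid, CD34 is a sialomucin, DPP4 is a surface peptidase, PI16 is a member of a secreted protein family found on adventitial fibroblasts, and vimentin is the intermediate filament protein of mesenchymal cells. CD24, encoded by Cd24a, is a lipid-anchored mucin-type protein of many epithelial and immature cells. None of the mesenchymal members marks fibroblasts alone: endothelial cells also make CD34, LY6A and vimentin, and some lymphocytes carry THY1, LY6A and DPP4.

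The libraries were made with a 3′ end kit and were shallow. Reads in genes ran from 507 to 209091 per library, and 6 libraries held under 10000: thyroid GFP+ replicates 1 and 2 at 3 months and replicate 4 at 6 months, thyroid GFP- replicate 2 at 6 months and replicate 1 at 9 months, and salivary GFP+ replicate 1. Replicate 4 supplied 174957 of the 201054 reads of thyroid GFP+ at 3 months. Levels are given as CPM, a gene's reads over all reads in genes of that library. A gene with 0 reads could still have made up between 14.3 and 5917 CPM, taking 3 reads as the limit that a count of 0 allows, a limit that covers counting error only. Libraries are listed below in the order of their replicate numbers.

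In the thyroid, averaged over the 3 ages, 5 mesenchymal members were higher in the GFP+ fraction and Cd24a was lower. Pdgfra, Thy1, Axl, Vim and Pi16 were higher by fitted ratios of 3.17 to 6.46, and Cd24a was 4.89-fold lower (edgeR quasi-likelihood test, Benjamini-Hochberg adjusted p under 0.05 for all 6, n = 11 libraries per fraction). Cd34 and Ly6a did not pass, and Dpp4 had too few reads to enter the fit. Thy1 and Axl met the filter on low counts only through GFP+ libraries, where they were high, which favours a call as higher. Both also passed with no such filter (edgeR adjusted p = 0.000625 for Thy1 and 0.0301 for Axl). Of 1900 genes tested, 20.2% passed in either direction, 11.4% as higher and 8.79% as lower, against 6 of the 8 members tested. The median fitted log2 fold change of the 7 mesenchymal members tested was 1.73, against -0.08 over all genes. All 6 of these calls held under each of 29 other settings, including leaving out each library in turn. In RNA from sorted cells in bulk, fewer cells of a type and less RNA per cell cannot be told apart.

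**Figure D1:**
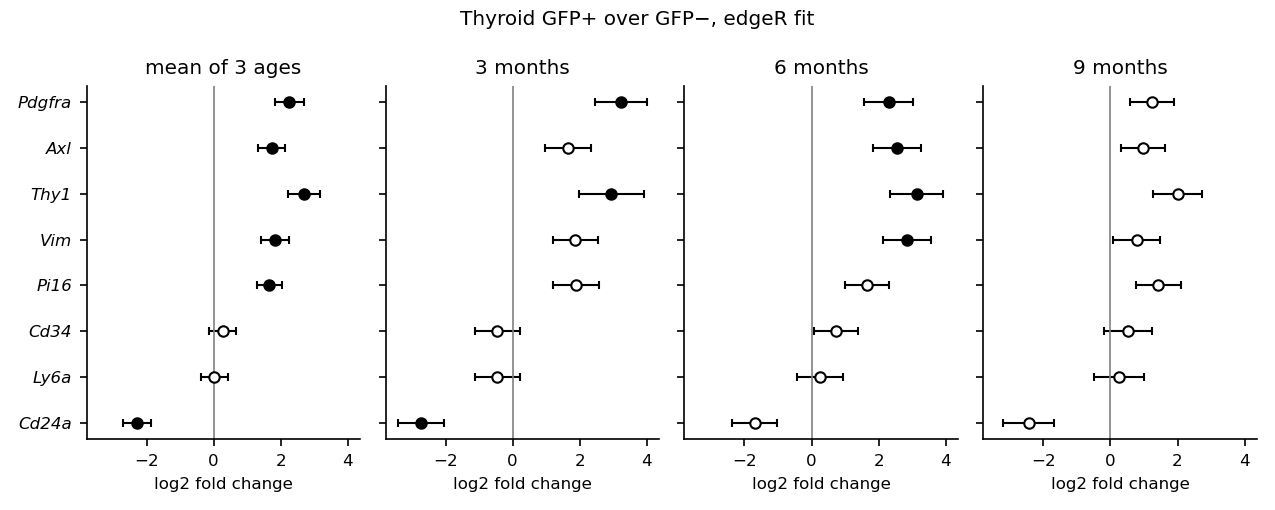
Fitted log2 fold change of thyroid GFP+ over GFP- cells for the 8 members tested, averaged over the ages and at 3, 6 and 9 months; bars are standard errors and filled points have an adjusted p under 0.05. The 5 members that passed as higher lie to the right and Cd24a to the left in the averaged panel, and no point is filled at 9 months.

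Taken by age, fewer members passed. At 3 months 3 of 8 did, Pdgfra and Thy1 as higher and Cd24a as lower (9.68% of all genes passed, 4.95% as higher and 4.74% as lower). At 6 months 4 of 8 did, Pdgfra, Thy1, Axl and Vim as higher (7.11% of all genes, 5.26% as higher and 1.84% as lower). At 9 months none of the 8 passed in edgeR or in DESeq2, and 3 had an unadjusted p under 0.05, beside 1.89% of all genes passing, 0.263% as higher and 1.63% as lower, and 169 of 1900 with an unadjusted p under 0.05. Without the libraries under 10000 reads, 6 members passed at 3 months and 6 at 6 months, Pdgfra, Thy1, Axl, Pi16 and Vim as higher and Cd24a as lower at both ages, and Cd24a passed at 9 months. With no filter on low counts, which adds many scarcely read genes to the adjustment, 0 members passed at 3 and at 6 months (edgeR). DESeq2 split the genes that passed differently, with 47 of 115 as higher at 3 months, 44 of 70 at 6 months and 0 of 18 at 9 months, against 94 of 184, 100 of 135 and 5 of 36 in edgeR.

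The letters around the gene starts were read for the members that were higher in GFP+ cells. RefSeq gives a promoter window, 250 bases before to 50 after the gene's start in build GRCm38.p6, for 6 of the 9 members, and the windows of the 4 such members that passed as higher are shown because these genes moved together. The counts were made on build mm9, so these coordinates do not belong to the count tables. Capitals mark a TATA box (TATAAA), a GC box (GGGCGG) or a CCAAT box (CCAAT), searched on both strands together with the AP-1 site TGANTCA. Pdgfra lies at chr5:75152001-75152300 on the plus strand, Axl at chr7:25788684-25788983 on the minus strand, Vim at chr2:13574061-13574360 on the plus strand and Pi16 at chr17:29318632-29318931 on the plus strand.
Pdgfra: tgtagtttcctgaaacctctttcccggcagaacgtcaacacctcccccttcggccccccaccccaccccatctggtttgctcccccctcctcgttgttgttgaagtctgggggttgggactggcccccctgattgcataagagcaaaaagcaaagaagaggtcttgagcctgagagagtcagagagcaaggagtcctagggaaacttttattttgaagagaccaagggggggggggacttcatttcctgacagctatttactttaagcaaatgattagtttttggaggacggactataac
Axl: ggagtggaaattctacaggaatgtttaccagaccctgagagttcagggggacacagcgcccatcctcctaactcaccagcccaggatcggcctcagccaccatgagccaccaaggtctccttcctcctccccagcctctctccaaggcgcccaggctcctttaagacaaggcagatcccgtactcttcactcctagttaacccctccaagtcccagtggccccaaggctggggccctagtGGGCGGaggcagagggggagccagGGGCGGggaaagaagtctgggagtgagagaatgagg
Vim: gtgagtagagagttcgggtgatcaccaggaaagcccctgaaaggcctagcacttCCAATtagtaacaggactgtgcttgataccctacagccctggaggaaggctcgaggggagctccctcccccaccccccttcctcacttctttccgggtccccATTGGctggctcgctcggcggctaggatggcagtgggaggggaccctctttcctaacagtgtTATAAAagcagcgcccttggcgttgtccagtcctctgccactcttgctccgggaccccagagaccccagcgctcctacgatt
Pi16: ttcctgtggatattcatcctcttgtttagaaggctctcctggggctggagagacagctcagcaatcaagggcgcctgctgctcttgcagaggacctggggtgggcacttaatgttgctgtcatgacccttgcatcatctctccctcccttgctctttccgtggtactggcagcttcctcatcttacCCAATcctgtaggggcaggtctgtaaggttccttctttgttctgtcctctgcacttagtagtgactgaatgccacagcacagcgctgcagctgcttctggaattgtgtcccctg
The Vim window holds a TATA box at -32 from the start and CCAAT boxes at -196 and, on the minus strand, at -94. Axl holds GC boxes at -10 and 15, and Pi16 a CCAAT box at -64. The Pdgfra window holds none of the 4 motifs, the CCAAT box is the 1 motif found in more than 1 of these windows, and no matches overlap. Of all 32851 promoter windows of this length in the RefSeq table, 13.6% hold the TATA box, 35.7% the GC box, 37.4% the CCAAT box and 7.81% the AP-1 site. The GC content was 51% for Pdgfra, 60.3% for Axl, 59.3% for Vim and 53.3% for Pi16, around a median of 52.7% over all windows.

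Pdgfra (ENSMUSG00000029231) encodes the alpha receptor for platelet-derived growth factors and is a common surface marker of fibroblasts. At 3 months Pdgfra stood at 0, 169.6, 376 and 434 CPM in GFP+ thyroid libraries, against 42.9, 6.11, 71.5 and 12.8 CPM in GFP- libraries. At 6 months Pdgfra had 399.7, 301.4, 107 and 0 CPM in GFP+, against 101, 0, 19.1 and 43.3 CPM in GFP- libraries. At 9 months Pdgfra had 369, 358 and 523 CPM in GFP+, against 170.0, 181 and 154 CPM in GFP- libraries. The fractions did not overlap at 9 months, and at the other ages the GFP+ libraries that fell among the GFP- ones were those of 1562 and of 507 reads, in which no Pdgfra read was seen. The GFP- value of 170.0 CPM at 9 months was 1 read of a library of 5884 reads. Without that library the fractions were still apart at 9 months. Over the ages the mean was 276 ± 179 CPM in GFP+ and 72.8 ± 68.1 CPM in GFP- cells (SD, n = 11 each). The fitted log2 fold change was 2.26 (SE 0.42, edgeR adjusted p = 2.62e-06).

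The Pdgfra difference by age had a log2 fold change of 3.23 at 3 months (SE 0.77, edgeR adjusted p = 0.00152), 2.31 at 6 months (SE 0.73, adjusted p = 0.0280) and 1.24 at 9 months (SE 0.67, adjusted p = 0.610). The call at 3 months was lost without GFP+ replicate 4 (log2 fold change 2.45, edgeR adjusted p = 0.0769), and the value fell by over 1.5 times without GFP- replicate 2 (log2 fold change 2.47, edgeR adjusted p = 0.0483). The call at 6 months was the less stable one: it was lost in DESeq2 (adjusted p = 0.0704) and without any 1 of 9 libraries (edgeR adjusted p 0.0554 to 0.240), which were GFP+ replicates 1 and 2 and GFP- replicates 3 and 4 at 6 months and GFP+ replicates 1 to 3 and GFP- replicates 2 and 3 at 9 months.

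Axl (ENSMUSG00000002602) encodes the receptor for GAS6, a kinase of the TAM family. At 3 months Axl had 0, 0, 322 and 326 CPM in GFP+ libraries and 0, 79.5, 71.5 and 89.7 CPM in GFP- libraries. At 6 months Axl stood at 364, 498, 118 and 0 CPM in GFP+, against 67.0, 0, 28.7 and 43.3 CPM in GFP- libraries. At 9 months Axl reached 230.4, 282 and 488 CPM in GFP+, against 0, 98.0 and 246 CPM in GFP- libraries. The fractions overlapped at every age, at 3 and 6 months only through libraries of under 10000 reads. The mean over the ages was 239 ± 186 CPM in GFP+ and 65.8 ± 70.1 CPM in GFP- cells (SD, n = 11 each), a log2 fold change of 1.73 (SE 0.40, edgeR adjusted p = 0.000173). At 6 months it was 2.56 (SE 0.71, edgeR adjusted p = 0.00865), a call lost in DESeq2 (adjusted p = 0.0588) and without GFP+ replicate 2 (edgeR adjusted p = 0.0843) or GFP- replicate 3 (edgeR adjusted p = 0.0856). Axl gave 1.66 at 3 months (edgeR adjusted p = 0.107), with 0.83 without GFP+ replicate 4 and 1.10 without GFP- replicate 1, and passed without GFP+ replicate 2 (edgeR adjusted p = 0.0448). Axl gave 0.97 at 9 months (edgeR adjusted p = 0.809), with 1.97 without GFP- replicate 3.

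Thy1 (ENSMUSG00000032011) encodes CD90, a lipid-anchored glycoprotein of fibroblasts, neurons and T cells, and had the highest fitted ratio of the members averaged over the ages. At 3 months Thy1 had 0, 0, 161 and 109 CPM in GFP+, against 10.7, 0, 35.8 and 12.8 CPM in GFP- libraries. At 6 months Thy1 had 188, 354, 107 and 0 CPM in GFP+, against 0, 0, 14.3 and 26.0 CPM in GFP- libraries. At 9 months Thy1 had 184, 288 and 337 CPM in GFP+, against 0, 45.2 and 84.5 CPM in GFP- libraries. Among the thyroid libraries of at least 10000 reads, Thy1 had 107 to 354 CPM in 8 GFP+ libraries and 0 to 84.5 CPM in 9 GFP- libraries, without overlap. The share of all genes without overlap is not given here. Thy1 met the filter only through GFP+ libraries, which favours such a separation. Its mean was 157 ± 129.9 CPM in GFP+ and 20.9 ± 26.2 CPM in GFP- cells (SD, n = 11 each), a log2 fold change of 2.69 (SE 0.48, edgeR adjusted p = 1.06e-06).

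Thy1 was higher at 6 months by a log2 fold change of 3.13 (SE 0.80, edgeR adjusted p = 0.00329) and stood at 2.0 at 9 months (SE 0.73, edgeR adjusted p = 0.160). At 3 months the log2 fold change was 2.94 (SE 0.97, edgeR adjusted p = 0.0299), on 22 reads in GFP+ and 3 reads in GFP- libraries. The ratio of those reads, each as a share of its group's total, was 13.2, with a 95% counting interval of 3.98 to 69.1. That call was lost in 14 of 29 other settings, among them DESeq2 (adjusted p = 0.105) and a table without ribosomal RNA rows (edgeR adjusted p = 0.0563). It was also lost without any 1 of 10 libraries (edgeR adjusted p 0.0617 to 0.260): GFP+ replicates 3 and 4 and GFP- replicates 1, 2 and 4 at 3 months and GFP+ replicates 1 to 3 and GFP- replicates 2 and 3 at 9 months.

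Vim (ENSMUSG00000026728), the vimentin gene, is made by fibroblasts, endothelial cells and other mesenchymal cells. At 3 months Vim had 0, 169.6, 858 and 1069 CPM in GFP+, against 118, 128, 215 and 103 CPM in GFP- libraries. At 6 months Vim had 1140.2, 1389, 573 and 1972 CPM in GFP+, against 168, 413, 62.2 and 86.6 CPM in GFP- libraries. At 9 months Vim had 353, 999 and 1302 CPM in GFP+, against 849.8, 452 and 492 CPM in GFP- libraries. The fractions were apart at 6 months, where the highest GFP+ value rests on 1 read of a library of 507, and overlapped at 3 and 9 months. The mean over the ages was 893 ± 583 CPM in GFP+ and 281 ± 245 CPM in GFP- cells (SD, n = 11 each), a log2 fold change of 1.83 (SE 0.41, edgeR adjusted p = 9.25e-05). At 6 months it was 2.84 (SE 0.72, edgeR adjusted p = 0.00329), at 3 months 1.88 (adjusted p = 0.0551) and at 9 months 0.78 (adjusted p = 0.895). Vim at 3 months gave 1.01 without GFP+ replicate 4, and passed without GFP+ replicate 1 or 2, GFP- replicate 3 or, at 6 months, GFP+ replicate 4 or GFP- replicate 2 (edgeR adjusted p 0.00943 to 0.0487).

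**Figure D2:**
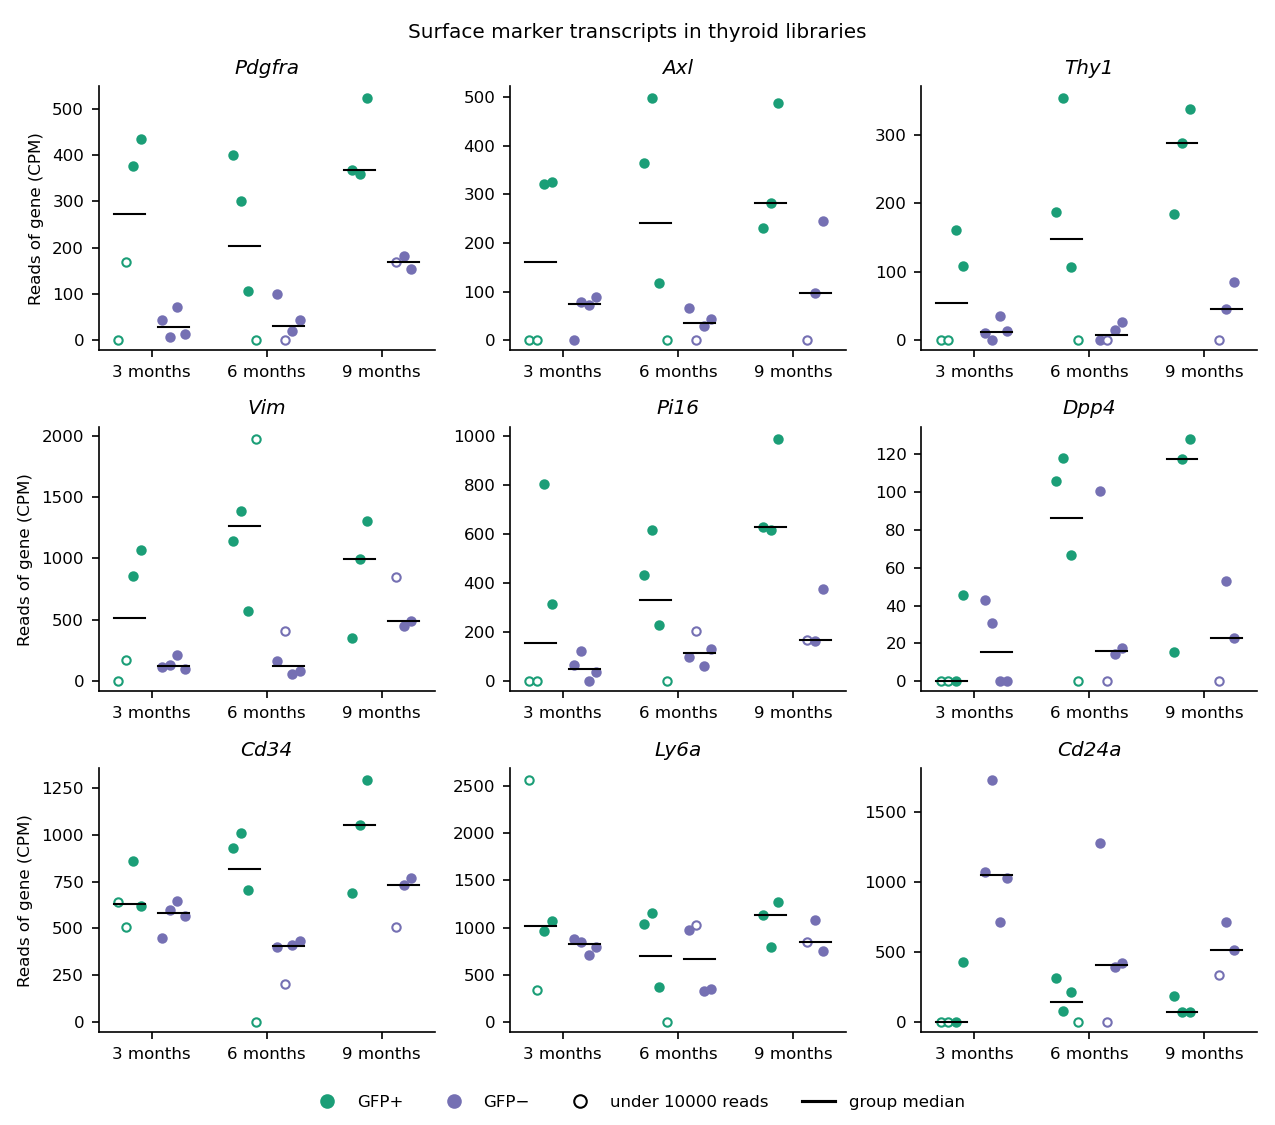
CPM of the 9 members in each thyroid library at 3, 6 and 9 months, GFP+ left of GFP- at each age; open circles are libraries of under 10000 reads and lines are group medians. Thy1 lies at 184 to 337 CPM in GFP+ and 0 to 84.5 CPM in GFP- libraries at 9 months, and Cd24a is lower on average in GFP+ than in GFP- cells at 3 and 9 months.

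Pi16 (ENSMUSG00000024011) and Dpp4 (ENSMUSG00000035000) together mark an adventitial fibroblast population known in several mouse tissues. At 3 months Pi16 had 0, 0, 805 and 314.4 CPM in GFP+, against 64.3, 122, 0 and 38.5 CPM in GFP- libraries. At 6 months Pi16 had 435, 616, 230.2 and 0 CPM in GFP+, against 101, 206, 62.2 and 129.9 CPM in GFP- libraries. At 9 months Pi16 had 629.7, 617 and 988 CPM in GFP+, against 170.0, 166 and 376 CPM in GFP- libraries. The fractions were apart at 9 months, and at 3 and 6 months once libraries of under 10000 reads were set aside. The GFP- value of 170.0 CPM at 9 months was 1 read of a library of 5884 reads, and the fractions were apart at 9 months without it too. The mean was 421 ± 342 CPM in GFP+ and 131 ± 102 CPM in GFP- cells (SD, n = 11 each), a log2 fold change of 1.66 (SE 0.38, edgeR adjusted p = 0.000187). No single age passed, with log2 fold changes of 1.90 at 3 months (edgeR adjusted p = 0.0544), 1.66 at 6 months (adjusted p = 0.103) and 1.43 at 9 months (adjusted p = 0.456). Pi16 passed at 3 months without GFP+ replicate 1 or 2 or, at 6 months, GFP+ replicate 4 or GFP- replicate 2 (edgeR adjusted p 0.0153 to 0.0425), and at 6 months without GFP+ replicate 4 (edgeR adjusted p = 0.0495).

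Dpp4, which encodes the peptidase CD26, had the fewest reads of the members in thyroid, 71 in all GFP+ and 27 in all GFP- libraries. At 3 months Dpp4 was seen in 1 of 4 GFP+ libraries at 45.7 CPM, and in GFP- libraries at 42.9, 30.6, 0 and 0 CPM. At 6 months Dpp4 had 106, 118, 66.5 and 0 CPM in GFP+, against 101, 0, 14.3 and 17.3 CPM in GFP- libraries. At 9 months Dpp4 had 15.4, 117 and 128 CPM in GFP+, against 0, 52.8 and 23.0 CPM in GFP- libraries. The fractions overlapped at every age. The mean was 54.2 ± 54.4 CPM in GFP+ and 25.6 ± 30.8 CPM in GFP- cells (SD, n = 11 each), a difference that did not exceed the spread (two-sided permutation test, p = 0.145, 100000 resamples).

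Cd34 (ENSMUSG00000016494) encodes a sialomucin of vascular and blood progenitor cells that many fibroblasts also carry. At 3 months Cd34 had 640.2, 509, 858 and 617 CPM in GFP+, against 450.3, 599, 644 and 564 CPM in GFP- libraries. At 6 months Cd34 had 929, 1009, 706 and 0 CPM in GFP+, against 402, 206, 411 and 433 CPM in GFP- libraries. At 9 months Cd34 had 691, 1052 and 1291 CPM in GFP+, against 509.9, 731 and 768 CPM in GFP- libraries. All 3 GFP+ libraries of at least 10000 reads at 6 months lay above every GFP- library, and the fractions overlapped at 3 and 9 months. Over the ages the mean was 755 ± 339 CPM in GFP+ and 520.0 ± 163 CPM in GFP- cells (SD, n = 11 each). The log2 fold change was 0.27 with a 95% interval of -0.51 to 1.04 (edgeR adjusted p = 0.761).

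Ly6a (ENSMUSG00000075602) encodes the mouse stem cell antigen Sca-1 and belongs to a family of near-identical neighbouring genes, so how the counting treated shared reads could change its level. At 3 months Ly6a had 2561, 339, 966 and 1075 CPM in GFP+, against 879, 849.9, 715 and 795 CPM in GFP- libraries. At 6 months Ly6a had 1034, 1153, 368 and 0 CPM in GFP+, against 972, 1032, 325 and 355 CPM in GFP- libraries. At 9 months Ly6a had 1136, 793 and 1267 CPM in GFP+, against 849.8, 1086 and 753 CPM in GFP- libraries. The fractions overlapped at every age, and the highest value came from a library of 1562 reads. Over the ages the mean was 972 ± 665 CPM in GFP+ and 783 ± 246 CPM in GFP- cells (SD, n = 11 each). The log2 fold change was 0.02 with a 95% interval of -0.77 to 0.81 (edgeR adjusted p = 0.994), and its sign turned in 11 of 29 other settings.

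Cd24a (ENSMUSG00000047139) moved the other way; it has pseudogene copies, with which reads could be shared. At 3 months Cd24a had 0, 0, 0 and 429 CPM in GFP+, against 1072, 1724, 715 and 1025 CPM in GFP- libraries. At 6 months Cd24a had 317, 78.6, 215 and 0 CPM in GFP+, against 1274, 0, 397 and 425 CPM in GFP- libraries. At 9 months Cd24a had 184, 76.4 and 69.8 CPM in GFP+, against 339.9, 716 and 515 CPM in GFP- libraries. Every GFP+ library lay below every GFP- library at 9 months. At 3 months the measured levels did too, although a count of 0 in the GFP+ library of 1562 reads allows up to 1921 CPM, and at 6 months the GFP- library of 4845 reads held no Cd24a read. The mean was 125 ± 145 CPM in GFP+ and 746 ± 492 CPM in GFP- cells (SD, n = 11 each), a log2 fold change of -2.29 (SE 0.41, edgeR adjusted p = 8.46e-07).

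For Cd24a the log2 fold change was -2.73 at 3 months (SE 0.69, edgeR adjusted p = 0.00250), -1.70 at 6 months (SE 0.66, adjusted p = 0.0988) and -2.44 at 9 months (SE 0.77, adjusted p = 0.0645). All 75 Cd24a reads of GFP+ cells at 3 months came from replicate 4. In the other 3 GFP+ libraries the gene had 0 of 26097 reads, which puts it at least 11.6-fold lower than in GFP- cells, taking 3 reads over those libraries. Averaged over the ages, the log2 fold change without that replicate was -4.60 (edgeR adjusted p = 2.02e-09). With libraries of under 10000 reads left out, Cd24a passed at 9 months (log2 fold change -2.69, edgeR adjusted p = 0.00795). It also passed at 6 months without GFP- replicate 2 (edgeR adjusted p = 0.0345), and at 9 months without any 1 of 5 libraries of other ages (edgeR adjusted p 0.0191 to 0.0359), GFP- replicate 2 at 6 months, GFP+ replicates 1, 2 and 4 at 3 months and GFP+ replicate 4 at 6 months.

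The difference between fractions did not vary detectably with age. In the test of the interaction of GFP with age, 0 of 8 members passed and 0 had an unadjusted p under 0.05 (edgeR), while 0.158% of all genes passed. Vim passed that test in libraries of at least 10000 reads (edgeR adjusted p = 0.0319), with 0.77 higher on the log2 scale at 6 than at 3 months and -1.80 at 9 against 3 months. Genes of any kind that passed the interaction test numbered 0 to 20 over the settings. Within GFP+ cells 0 members passed the test of age (edgeR, 1.58% of all genes passed, and 0 members had an unadjusted p under 0.05). Within GFP- cells 0 passed (1.53% of all genes), and 5 had an unadjusted p under 0.05, as did 250 of 1900 genes.

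Those 5 were Pdgfra, Thy1, Vim, Pi16 and Axl, the members that were higher in GFP+ cells, and each had its highest GFP- level at 9 months. In GFP- cells Pdgfra averaged 33.3 ± 30.1 CPM at 3 months (n = 4), 40.8 ± 43.6 CPM at 6 months (n = 4) and 168 ± 13.8 CPM at 9 months (n = 3), and the 9 month libraries lay above all others of that fraction. At 9 months replicate 1 gave 1 Pdgfra read of 5884 reads, so the small SD there is not a measure of counting error. The fitted log2 differences from 3 months were 0.70 at 6 months and 2.55 at 9 months (edgeR adjusted p = 0.0997 over the ages). Genes of any kind that passed this test of age numbered 1 to 117 over the settings. In libraries of at least 10000 reads, Pdgfra (edgeR adjusted p = 0.00960), Vim (adjusted p = 0.000512) and Pi16 (adjusted p = 0.0232) passed. Among those libraries GFP- cells at 9 months were 2, and the fibroblast list described below was also highest there.

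Taken over all 8 groups, the mean of Pdgfra was highest in thyroid GFP+ cells at 9 months, followed by GFP+ at 3 and 6 months, GFP- at 9, 6 and 3 months, salivary GFP- and salivary GFP+. The 1 step in that order without overlap of neighbouring libraries was that between thyroid GFP- cells at 9 and at 6 months. It includes the GFP- library of 5884 reads at 9 months, which held 1 Pdgfra read. For Pi16 the step from GFP+ at 9 months (745 CPM) to GFP+ at 6 months (320.3 CPM) was also free of overlap, but barely. The lowest value at 9 months was 616.8 CPM and the highest at 6 months 615.9 CPM. The test of age within GFP+ cells did not pass for Pi16 (edgeR adjusted p = 0.864). For Cd24a the order ran from thyroid GFP- at 3 months (1134 CPM), through GFP- at 6 and 9 months (524 CPM each) and salivary GFP+ (192 CPM), to thyroid GFP+ at 3 months (107 CPM), with overlap at every step.

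The share of Cd24a among all reads of the 9 members sums up the contrast between it and the others. Cd24a held 8.66%, 5.65% and 1.97% of the members' reads in thyroid GFP+ cells at 3, 6 and 9 months, against 43.7%, 30.2% and 17.7% in GFP- cells. All 75 Cd24a reads of GFP+ cells at 3 months came from replicate 4. The median share per library was 0, 3.94 and 1.67% in GFP+ cells at 3, 6 and 9 months, against 39.4, 28.5 and 15.1% in GFP- cells. Per library the share was 0 to 9.70% in GFP+ cells and, apart from the GFP- library of 4845 reads with 0%, 11.8 to 48.7% in GFP- cells. The summed level of the 8 mesenchymal members was 3181 ± 1413, 3571 ± 1710 and 4814 ± 1384 CPM in GFP+ cells at 3, 6 and 9 months, against 1698 ± 103, 1460.2 ± 497 and 2753 ± 181 CPM in GFP- cells (SD, n = 4, 4 and 3). In salivary gland Cd24a held 54.8% of the members' reads in GFP+ and 44.6% in GFP- cells, on 31 and 101 reads.

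**Figure D3:**
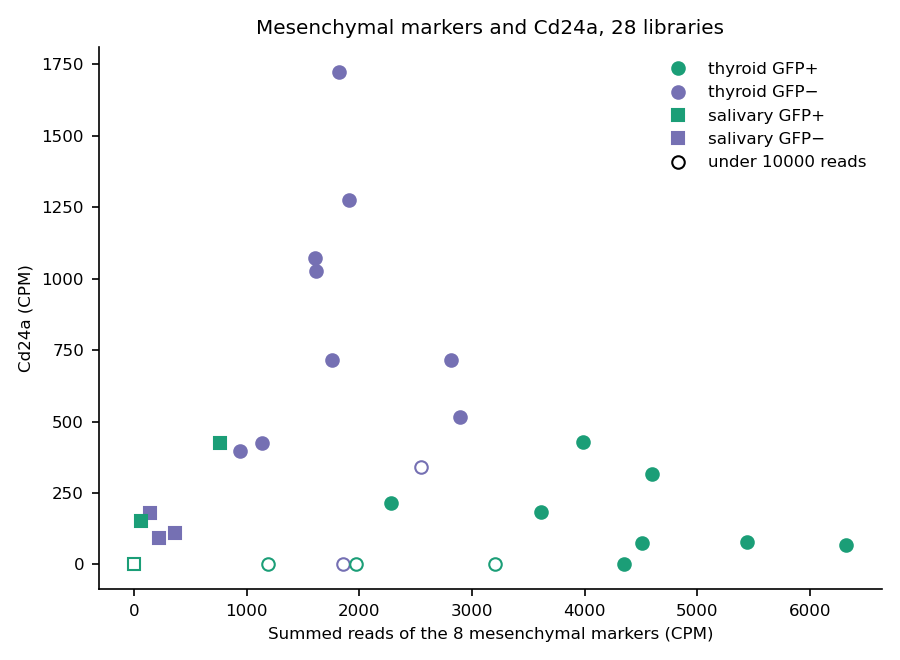
Summed CPM of the 8 mesenchymal members against CPM of Cd24a in each of the 28 libraries, by gland and fraction. Thyroid GFP+ libraries lie low, at 0 to 429 CPM of Cd24a, and reach furthest right, while overlapping GFP- libraries along the mesenchymal axis, where they start at 1187 CPM. Thyroid GFP- libraries reach 1724 CPM of Cd24a and 2895 CPM of mesenchymal members, and salivary libraries lie at the left.

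The make-up of the mesenchymal reads differed too. Of the reads of the 8 mesenchymal members in thyroid, Vim made up 23.0% in GFP+ (95% exact binomial interval 21.6 to 24.4%) and 11.5% in GFP- cells (10.1 to 13.1%). Pdgfra made up 8.14% in GFP+ (7.26 to 9.08%) and 3.65% in GFP- cells (2.83 to 4.63%), and Thy1 4.90% (4.22 to 5.66%) and 1.46% (0.956 to 2.13%). Ly6a and Cd34 took the larger part of the GFP- reads. Ly6a made up 21.7% in GFP+ and 38.9% in GFP- cells, and Cd34 21.1% in GFP+ and 31.0% in GFP- cells. The intervals are for 3589 reads in GFP+ and 1780 in GFP- cells, cover counting error only and were not tested over libraries. They pool the ages. At 9 months alone the intervals overlapped for Vim (17.8 to 21.8% in GFP+, 14.3 to 19.7% in GFP-). They also overlapped for Pdgfra (7.07 to 9.90% and 4.32 to 7.79%) and Cd34, while those of Thy1 and Ly6a stayed apart.

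The level of the members was set beside markers of the cell types such a sort could hold. A list of 10 fibroblast genes summed to 4919 to 19500.2 CPM in thyroid GFP+ libraries and 1037 to 9286 CPM in GFP- libraries. All 10 had a log2 fold change above 0 averaged over the ages, with a median of 2.03, beside -0.08 over all genes. A list of 10 endothelial genes summed to 0 to 2561 CPM in GFP+ and 2028 to 8749.9 CPM in GFP- libraries. Pericyte and smooth muscle genes summed to 0 to 2252 CPM in GFP+ and 210.4 to 826 CPM in GFP- libraries. In GFP- cells the fibroblast sum averaged 1637 CPM at 3 months, 2844 CPM at 6 months and 6413 CPM at 9 months, beside the levels of Pdgfra there. The part of these cell types in the members' differences was not tested.

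**Figure D4:**
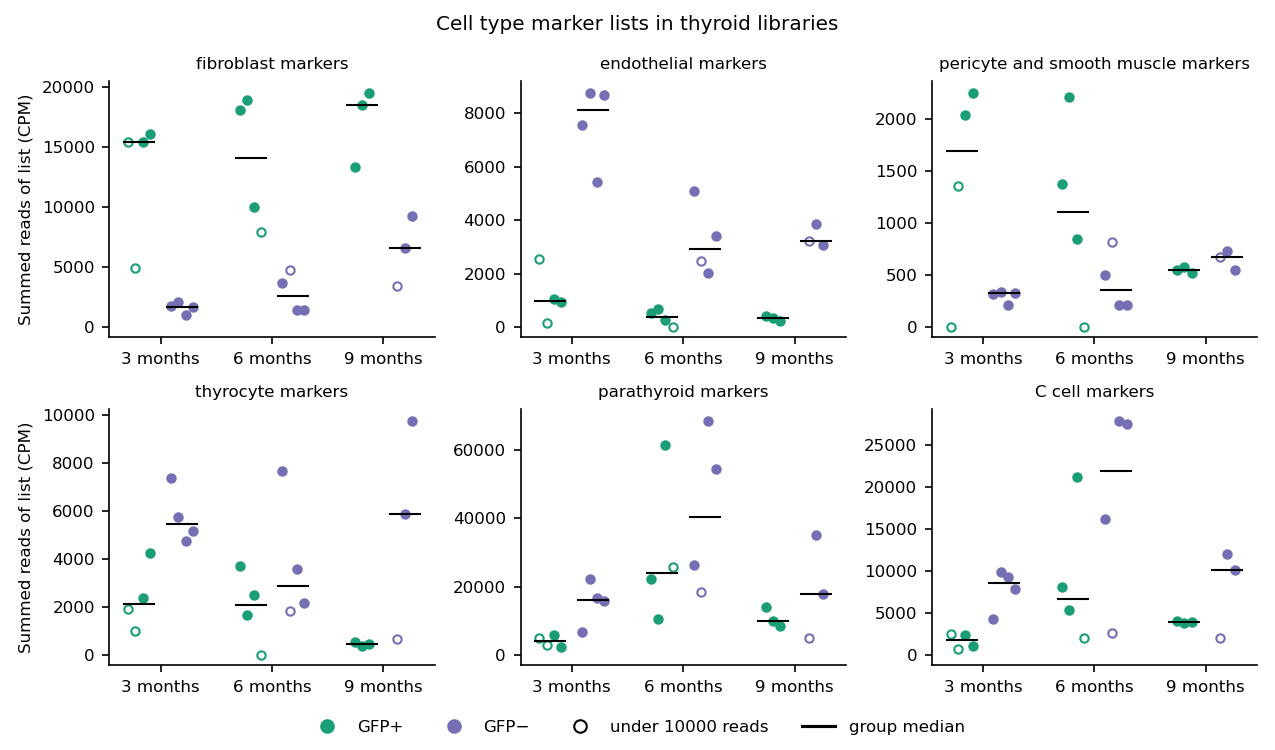
Summed CPM of 6 marker lists in each thyroid library by age, GFP+ left of GFP-. The fibroblast sum is higher and the endothelial sum lower in GFP+ than in GFP- cells on average at each age.

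Epithelial and endocrine markers were set beside Cd24a. Thyrocyte genes summed to 0 to 4269.6 CPM in GFP+ and 679.8 to 9762 CPM in GFP- libraries. C cell genes summed to 678 to 21134 CPM in GFP+ and 2039 to 27859 CPM in GFP- libraries. Parathyroid genes summed to 2418 to 61464 CPM in GFP+ and 5099 to 68516 CPM in GFP- libraries. Globin and other red cell genes summed to 0 to 1739 CPM in GFP+ and 358 to 14439 CPM in GFP- libraries. Ptprc, the common leukocyte antigen, had 0 reads in all 28 libraries, and T cell genes reached 10.2 CPM in GFP+, against 6.11 CPM in GFP- libraries at most. Macrophage genes reached 251.5 CPM in a GFP+ and 218 CPM in a GFP- library, both at 3 months, with a median of 0 in both fractions. Their part in the level of Cd24a was not tested.

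The genes whose pattern was most like that of Cd24a included genes of blood vessels. Over the 17 thyroid libraries of at least 10000 reads, among 1865 genes, the closest by Spearman's rho on log2(CPM + 50) were Igfbp3 (0.97), Rgcc (0.95), Ednrb (0.93), Plvap (0.92) and Mmrn2 (0.92). Plvap and Mmrn2 are made by endothelial cells. Cd24a had a rho of 0.87 with the endothelial sum, 0.86 with the thyrocyte sum, 0.42 with the C cell sum, 0.32 with the parathyroid sum and -0.68 with the fibroblast sum. Within the 9 GFP- libraries the rho was 0.83 with the endothelial and 0.50 with the thyrocyte sum, and within the 8 GFP+ libraries 0.10 and 0.71. These libraries differ in fraction, age and depth, which the correlations share. Over all 17 libraries the endothelial and thyrocyte values were thus close, within GFP- libraries the endothelial one was higher and within GFP+ libraries the thyrocyte one, so the name epithelial-endocrine for Cd24a comes from its known biology and was not settled here.

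The mesenchymal members went with the fibroblast sum over the same 17 libraries, at a rho of 0.68 for Ly6a, 0.71 for Dpp4, 0.82 for Cd34, 0.85 for Pdgfra and Thy1, 0.89 for Pi16, 0.91 for Axl and 0.92 for Vim. The closest pair was Axl and Vim, with a rho of 0.94, which was 0.95 within GFP+ and 0.70 within GFP- libraries. Thy1 and Cd24a ran opposite, at -0.87. The genes most like Pdgfra were Pmp22 (0.93), Celf2 (0.93), Lpar1 (0.92), Abca8a (0.91) and Gsn (0.89). Part of each value is the step between the fractions, since the rho of Pdgfra with Thy1 was 0.85 in all 17 libraries, 0.10 within the 8 GFP+ libraries and 0.64 within the 9 GFP- libraries.

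Genes that belong with the members by function were read from lists. Of 14 mesenchymal progenitor genes, 10 were tested and 8 were higher in thyroid GFP+ cells averaged over the ages, as were 11.4% of all genes, and the list's median log2 fold change was 1.62, beside -0.08 over all genes. Has1, a hyaluronan synthase, averaged 686 ± 501 CPM in GFP+ and 102 ± 98.0 CPM in GFP- cells (SD, n = 11 each), a log2 fold change of 2.57 (edgeR adjusted p = 1.52e-08). Fbn1, which encodes the microfibril protein fibrillin-1 and also stands in the fibroblast list, averaged 513 ± 302.7 CPM in GFP+ and 91.8 ± 111 CPM in GFP- cells, a log2 fold change of 2.55 (edgeR adjusted p = 2.62e-08). Mfap5, another microfibril gene, gave 1.64 (edgeR adjusted p = 0.000303) and the secreted lectin gene Clec3b 1.69 (edgeR adjusted p = 0.000982). By age, 4 of these 10 genes were higher at 3 months, 2 at 6 months and 0 at 9 months, beside 4.95%, 5.26% and 0.263% of all genes.

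Of 14 other mesenchymal surface genes, 9 were tested, 4 were higher and 2 lower, beside 11.4% and 8.79% of all genes, with a median of 0.52. The adhesion molecule gene Vcam1 had a log2 fold change of 3.06 (edgeR adjusted p = 1.69e-06), with a mean of 111 ± 97.7 CPM in GFP+ cells, against 28.9 ± 60.5 CPM in GFP- cells. Its GFP- libraries alone could not have met the filter on low counts, which favours a call as higher. The result for Vcam1 with no filter is not given here. Ddr2, a collagen receptor gene, gave 1.86 (edgeR adjusted p = 0.000120), Cd44, a hyaluronan receptor gene, 1.65 (adjusted p = 0.000847) and Lrp1 1.55 (adjusted p = 0.00102). The 2 lower genes, Mcam at -1.75 (edgeR adjusted p = 0.000584) and Eng at -1.51 (edgeR adjusted p = 0.00370), are also made by endothelial cells. Podxl, the sister gene of Cd34 and the 1 of its 2 family genes that could be tested, fell to 83.7 ± 83.6 CPM in GFP+ cells, against 646 ± 393 CPM in GFP- cells (log2 fold change -3.15, edgeR adjusted p = 2.91e-11), and was lower at each age.

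Ligands and relatives of the receptors mostly lay below the depth needed. None of the 5 other PDGF ligand and receptor genes was abundant enough to test: Pdgfrb averaged 41.8 ± 41.5 CPM in GFP+ and 8.85 ± 14.7 CPM in GFP- cells, and the ligand gene Pdgfb 22.8 ± 50.6 CPM in GFP+ and 90.2 ± 90.6 CPM in GFP- cells (SD, n = 11 each). Of 4 AXL ligand and sister receptor genes, 2 were tested and 0 passed in edgeR, with 0 at an unadjusted p under 0.05. The ligand genes Gas6 and Pros1 had log2 fold changes of -0.44 (edgeR adjusted p = 0.497) and 0.77 (adjusted p = 0.246). Of 8 genes of the Ly6 family other than Ly6a, 2 were tested and 0 passed, Ly6c1 at -0.79 (edgeR adjusted p = 0.132, with an unadjusted p under 0.05) and Ly6e at -0.37 (adjusted p = 0.625). Of 8 epithelial surface and junction genes, 4 were tested and Cdh1, the E-cadherin gene, was lower at -1.07 (edgeR adjusted p = 0.0347), while Epcam stood at -0.84 (adjusted p = 0.127). None of 8 other intermediate filament genes could be tested in the thyroid.

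In salivary gland most mesenchymal members had few reads. Thy1 had 0 reads in all 6 libraries, Axl 0 in GFP+ and 2 in GFP- cells, Pdgfra 1 in GFP+ and 3 in GFP- cells, Pi16 1 in each and Vim 3 in each, of 92013 reads in GFP+ and 301336 in GFP- libraries. Dpp4 had 2 reads in GFP+ and 8 in GFP- cells. In GFP- cells its summed reads came to 26.5 CPM, against 37.2 CPM in thyroid at 9 months, a ratio of 1.40 for thyroid over salivary gland (95% counting interval 0.498 to 4.09). Cd24a was the best measured, at 0, 424 and 151 CPM in GFP+, against 91.4, 111 and 180.2 CPM in GFP- libraries. Ly6a had 0, 169.6 and 25.2 CPM in GFP+, against 65.3, 111 and 84.8 CPM in GFP- libraries, and Cd34 0, 254 and 0 CPM in GFP+, against 65.3, 194 and 10.6 CPM in GFP- libraries. The fractions overlapped for every member. In edgeR 0 of 8 members and 0% of 974 genes passed, 0 members and 97 genes had an unadjusted p under 0.05, and DESeq2 passed 0 members. For Cd24a the log2 fold change was 0.24 with a 95% interval of -1.32 to 1.80 (edgeR adjusted p = 0.928).

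The thyroid was set against the salivary gland at 9 months within each fraction, in comparisons that reuse the libraries above. In GFP+ cells 4 of 8 members passed (14.6% of all genes, 9.55% as higher and 5.03% as lower), 3 of them higher and Cd24a lower in thyroid. Pi16 stood at 629.7, 617 and 988 CPM in thyroid and 0, 84.8 and 0 CPM in salivary libraries (log2 fold change 4.09, SE 1.28, edgeR adjusted p = 0.0188). Axl was at least 10.02-fold higher in thyroid (edgeR adjusted p = 0.0297) and Thy1 at least 8.59-fold higher (edgeR adjusted p = 0.0397), taking 3 reads over the salivary GFP+ libraries, which held none. Those bounds are per read in genes. A few genes held much of the salivary reads, and counted only over reads outside ribosomal RNA and outside the 10 most abundant other genes of each library, a scale added after seeing the data, the bounds were 2.47-fold for Axl and 2.12-fold for Thy1. Cd24a had 184, 76.4 and 69.8 CPM in thyroid and 0, 424 and 151 CPM in salivary libraries, which overlap (log2 fold change -2.56, SE 0.82, edgeR adjusted p = 0.0218). Its summed reads came to 96.5 CPM in thyroid and 185 CPM in salivary gland, a ratio of 0.522, and over the remaining reads to 166 CPM in thyroid and 1287 CPM in salivary gland, a ratio of 0.129. In the fit all genes had a median of 1.16. Axl and Thy1 met its filter on low counts only through thyroid GFP+ libraries, where they were high. That favours a call as higher, and neither gene passed with no filter.

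Those 4 calls leaned on single libraries. Pi16 passed in 15 of 19 other settings, Axl in 13 of 19, Thy1 in 8 of 18 and Cd24a in 7 of 19. Pi16 was lost without thyroid GFP+ replicate 2 or 3 or salivary GFP+ replicate 3 (edgeR adjusted p 0.0505 to 0.130). Axl was lost without any of the 3 salivary GFP+ libraries or thyroid GFP+ replicate 2 or 3 (0.0527 to 0.152), Thy1 also without thyroid GFP- replicate 2 or 3 (0.0591 to 0.176) and Cd24a without any 1 of 9 of the 12 libraries (0.0509 to 0.225). Pdgfra, Cd34, Vim and Ly6a, with log2 fold changes of 3.32, 2.92, 2.75 and 2.70, did not pass (edgeR adjusted p 0.0544 to 0.0699). Their thyroid libraries lay above their salivary libraries, also among libraries of at least 10000 reads, but the share of all genes so separated is not given here. Salivary GFP+ replicate 1 held 993 reads, where 3 reads amount to 3021 CPM, so its values of 0 do not separate the glands. Without ribosomal RNA rows all 8 members passed in GFP+ cells (edgeR), and with the replicate number as a block 2 did. Genes of any kind that passed numbered 31 to 198 over the settings. The changes in count were thus not shown to be particular to the members.

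In GFP- cells 2 of 8 members passed (14.2% of all genes, 9.86% as higher and 4.31% as lower), Pi16 and Vim, both higher in thyroid, and 4 did without ribosomal RNA rows. Genes of any kind that passed numbered 32 to 208 over the settings. DESeq2 gave 70 of 118 genes that passed as higher, against 96 of 138 in edgeR. Vim had 849.8, 452 and 492 CPM in thyroid and 26.1, 0 and 5.30 CPM in salivary libraries (log2 fold change 3.72, SE 1.05, edgeR adjusted p = 0.00756), a ratio of summed reads of 48.2 with a 95% counting interval of 16.1 to 237 on 3 salivary reads, and of 20.8 over the remaining reads. Pi16 had 170.0, 166 and 376 CPM in thyroid and 0, 27.7 and 0 CPM in salivary libraries (log2 fold change 4.22, SE 1.28, edgeR adjusted p = 0.0147), a ratio of 80.7 with an interval of 14.0 to 3233 on 1 salivary read, and of 34.9 over the remaining reads. Pi16 was lost without salivary GFP- replicate 1 or 3 or thyroid GFP- replicate 3 (edgeR adjusted p 0.0716 to 0.373), and Vim without salivary GFP- replicate 2 or 3 (0.0718 to 0.309). Cd24a showed a log2 fold change of 0.26 with a 95% interval of -1.09 to 1.62 (edgeR adjusted p = 0.880).

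**Figure D5:**
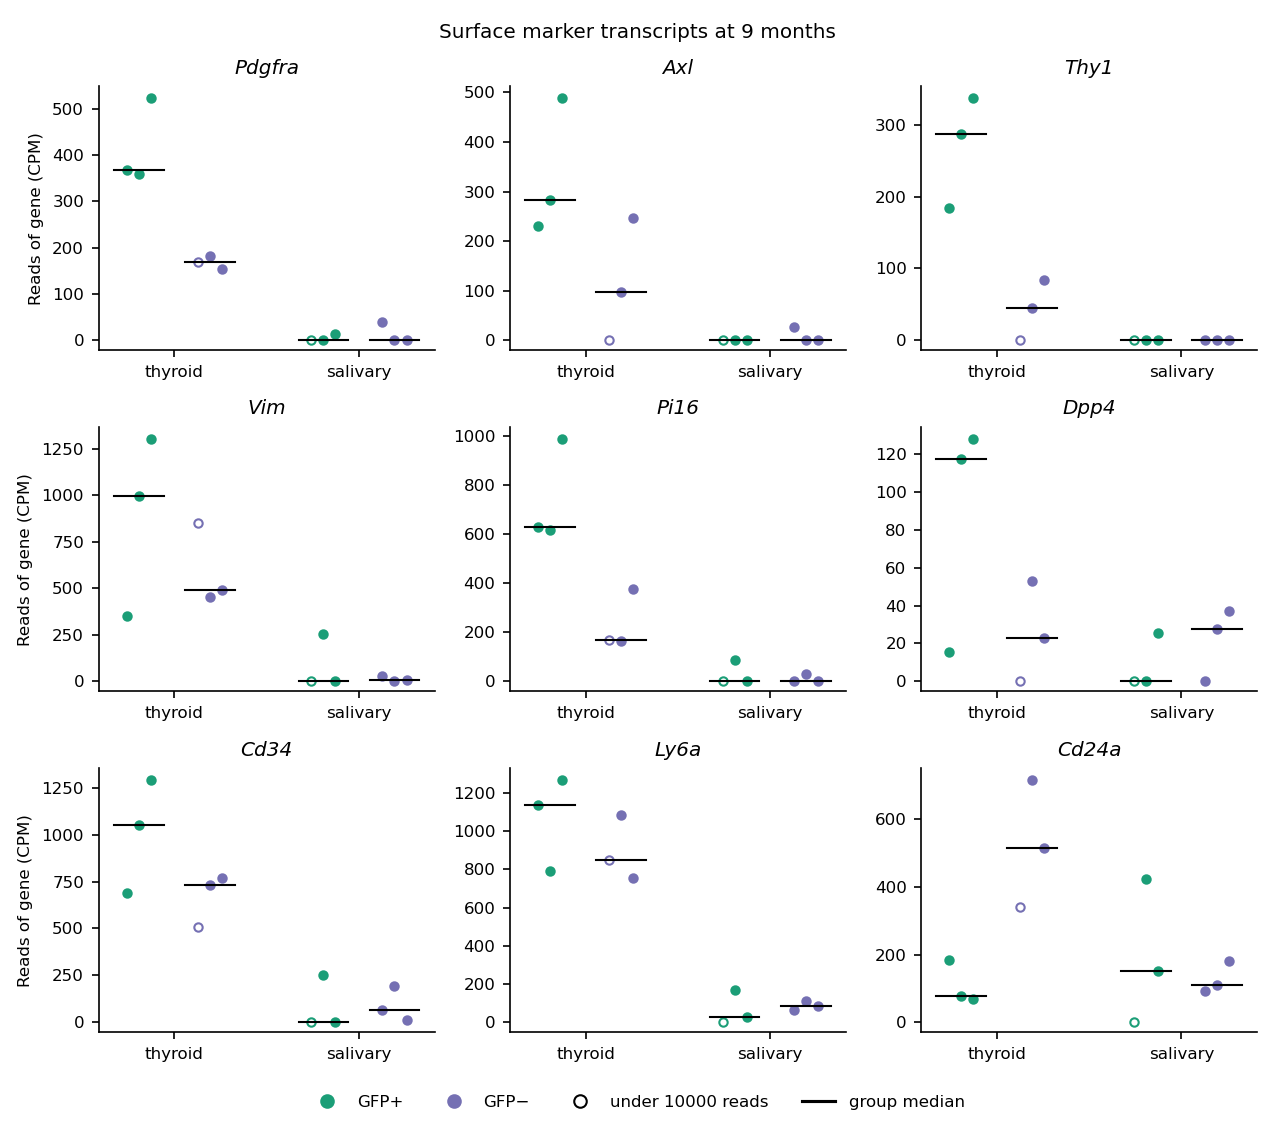
CPM of the 9 members in each library at 9 months, thyroid left of salivary gland and GFP+ left of GFP- within each gland. Thy1 is at 0 in all 6 salivary libraries, and Cd24a is at 339.9 to 716 CPM in thyroid GFP- cells.

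Whether the step between fractions differs between the glands was tested as an interaction. In edgeR 0 of 8 members and 0% of 974 genes passed, with 1 member and 89 genes at an unadjusted p under 0.05. That member was Cd24a, whose log2 fold change of GFP+ over GFP- was 2.82 lower in thyroid (SE 1.06, edgeR adjusted p = 0.399). In the salivary libraries the 10 most abundant genes other than ribosomal RNA held 40.5 to 65.7% of the remaining reads, against 8.09 to 27.96% in thyroid libraries. Fibroblast genes summed there to 0 to 763 CPM in GFP+ and 15.9 to 665 CPM in GFP- libraries. Their part, and that of the abundant genes, in the low salivary level of most mesenchymal members was not tested.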

How the data were processed

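The deposited files hold whole-number read counts per Ensembl gene, 1 table for each of 28 libraries, in 8 groups set by gland, GFP signal and age. Per the labels' protocols, the authors isolated RNA on columns with DNase treatment and made libraries with a 3′ end kit. Per the submitters' processing notes, bcl2fastq was used and the genome build was mm9, both without versions. The aligner and the counter are not given in the sources used here. Reads in genes ran from 507 to 209091 per library. The no-feature row held 13.3 to 85.8% of all reads, and the 5 summary rows stayed out of totals and tests. Ribosomal RNA rows held 25.1 to 63.8% of reads in genes and were kept. Symbols matched 47224 of 47643 identifiers, including all 9 members. No 2 libraries of a group had identical counts (36 pairs), and the lowest chi-square per degree of freedom was 1.13, in a pair with the library of 507 reads.

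CPM and their means and SD were computed without further scaling. Tests used edgeR 4.0.16 in R 4.3.3 (TMM factors, filterByExpr with a minimum count of 10 and total of 15, robust quasi-likelihood fits, two-sided, Benjamini-Hochberg adjustment over all genes tested, threshold 0.05). All 22 thyroid libraries entered 1 fit (1900 genes, biological coefficient of variation 0.466, TMM factors 0.582 to 10.5) and the 12 libraries at 9 months another (974 genes, 0.479, factors 0.269 to 7.48). SE is the fold change divided by the root of F. The thyroid comparison averaged over the ages was also run on simulated counts, after the fit to the real ones. The fit at 9 months was not run on simulated counts.

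The members, the pathway and marker lists and the rule for naming list genes (those that passed, at most 4 per list and ranked by adjusted p, else at most 2, ranked by level) were chosen with earlier results of these data known. Lrp1 and Eng were named after their values were seen, to complete a count. Likeness used genes tested in the thyroid fit, the 5 with the highest rho. The settings varied were the tool (DESeq2 1.42.0), the scaling (DESeq2 size factors within edgeR), no filter, all 28 libraries in 1 fit, a replicate block, libraries of at least 10000 reads, no ribosomal RNA rows, and leaving out each library in turn. Ratios of summed reads between glands were also taken over reads outside ribosomal RNA and each library's 10 most abundant other genes, a scale added after seeing the data. Floors (3 reads) and intervals (95%) cover counting error only.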

Additional observations from a re-analysis of the deposited data

Results flagged for a closer look

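Each level of a member, and the summed level of the 8 mesenchymal members, was examined in the thyroid groups at 3 and 6 months, 40 sets of 4 libraries, and 3 sets held a library far from the others (Dixon's test at 95%). Chance gives about 1 in 20 for normally distributed values. Where the other 3 libraries are at 0, any level above 0 is flagged. Cd24a stood at 428.7 CPM in thyroid GFP+ replicate 4 at 3 months and at 0 in the other 3 libraries of that group. Dpp4 stood at 45.7 CPM in the same library and at 0 in the others. In those others 3 reads amount to 161 to 1921 CPM, so Dpp4 at that level was not detectable at their depth. For Cd24a the limit was 1921 CPM in replicate 1 and 509 CPM in replicate 2, also above the flagged level. Cd34 stood at 206 CPM in thyroid GFP- replicate 2 at 6 months, 1 read in a library of 4845 reads, and at 402 to 433 CPM in the other 3.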

How the results depend on the processing

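Counts of members that passed are given by setting. Averaged over the ages, 6 passed in every setting. At 3 months 3 passed, 0 with no filter on low counts and 6 in libraries of at least 10000 reads; at 6 months 4 passed, 2 in DESeq2, 0 with no filter and 6 in the deeper libraries. In the deeper libraries 1 passed at 9 months, 1 in the interaction with age and 3 for age within GFP- cells, against 0 as reported. Between glands, in GFP+ cells 4 passed, 0 with no filter, 2 with the replicate block and 8 without ribosomal RNA rows; in GFP- cells 2 passed, and 0, 1 and 4 in those settings. With the replicate block in thyroid 6 passed over the ages, 2 at 3 months, 3 at 6 months and 0 at 9 months. Replicate numbers were not taken to pair the libraries, since same-numbered thyroid libraries had residual correlations of -0.089 to 0.351, above 0.1 in 3 of 11 pairs. Leaving out 1 library gave 6 over the ages, 1 to 6 at 3 months, 2 to 5 at 6 months, 0 to 1 at 9 months and for age within GFP- cells, 0 for age within GFP+ cells, for both interactions and within salivary gland, 0 to 7 between glands in GFP+ and 0 to 4 in GFP- cells. At 3 months 1 passed without GFP+ replicate 4, 6 without GFP+ replicate 2, and 5 without GFP+ replicate 1 or, at 6 months, GFP+ replicate 4 or GFP- replicate 2. At 6 months 2 passed without GFP+ replicate 2 or GFP- replicate 3. At 9 months 1 passed without GFP+ replicate 1, 2 or 4 at 3 months, GFP+ replicate 4 at 6 months or GFP- replicate 2 at 6 months. For age within GFP- cells 1 passed without GFP+ replicate 2 at 3 months. Between glands in GFP+ cells 7 passed without thyroid GFP- replicate 1, 2 without thyroid GFP- replicate 2 or 3 or salivary GFP+ replicate 1, and 0 without thyroid GFP+ replicate 2 or 3 or salivary GFP+ replicate 3. In GFP- cells 4 passed without thyroid GFP- replicate 1, 1 without thyroid GFP- replicate 3 or salivary GFP- replicate 2, and 0 without salivary GFP- replicate 3.

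Genes of any kind that passed numbered at most 489 over the ages and stayed within 1.5 times the 383 reported; they numbered 22 to 232 at 3 months (184 as reported), 10 to 234 at 6 months (135), 3 to 53 at 9 months (36), 0 to 20 in the interaction with age (3), 8 to 56 for age within GFP+ (30) and 1 to 117 within GFP- cells (29). Between glands they numbered 31 to 198 in GFP+ (142) and 32 to 208 in GFP- cells (138), within salivary gland 0 to 18 (0) and in the interaction with gland 0 to 1 (0). The median over all genes at 3 months, -0.26 as reported, moved by -0.11 in DESeq2, 0.26 with no filter, 0.23 in the deeper libraries and -0.18 without ribosomal RNA rows. Apart from the filter and the number of libraries, which change what is tested, the cause was not tested. Over the reads outside ribosomal RNA and the 10 most abundant genes, added after seeing the data, the thyroid over salivary ratio of Dpp4 in GFP- cells was 0.606, against 1.40 over all reads, on 10 and 8 reads. Depth limits Dpp4 and the salivary values.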
